A study of Mus musculus with 8 samples.

Results

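The endothelial cells of the mouse iris were represented by 273 of the 34357 nuclei (0.795%) profiled in 8 single nucleus RNA-seq (snRNAseq) libraries. They are all the nuclei that the authors labelled as endothelial (EC), and no further criterion was applied. The irises, dissected with differing amounts of ciliary body, came from female albino WT mice of 6 to 8 weeks of age, and each library was made from 5 or 6 irises. In 3 libraries the eyes were untreated. In 3 the pupil was constricted by hourly drops of 5% pilocarpine (a muscarinic agonist), with the mice in the light, and in 2 it was dilated by hourly drops of 5% phenylephrine (an alpha-1 adrenergic agonist) and 1% cyclopentolate (a muscarinic antagonist), with the mice in the dark. Collection was after 6.5 hours. The constricted and dilated groups therefore differ in lighting as well as in drug, and these cannot be told apart. Nuclei were prepared on 5 occasions (batches) and read in 2 sequencing runs, but the sources used here do not assign libraries to them.

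Endothelial cells line blood vessels. In most of the central nervous system and in the iris they are sealed by tight junctions and carry transporters that restrict and select what leaves the blood, whereas in the ciliary processes, which make aqueous humour, the capillary endothelium is fenestrated, with pores spanned by diaphragms. Identity and survival of the lining depend on receptors for vascular endothelial growth factor (VEGF) and angiopoietins, on Wnt, Notch and BMP signalling, and on transcription factors of the ETS and SOX families.

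The untreated libraries held 20, 65 and 64 endothelial nuclei, the constricted libraries 23, 12 and 16, and the dilated libraries 49 and 24. Together these nuclei carried 681765 unique molecular identifiers (UMIs, each standing for 1 captured transcript), from 26113 to 173881 per library, with a median of 1927 UMIs and 1206 genes per nucleus. A doublet caller marked 20 of the 273 (7.33%), against 359 of all nuclei (1.04%). By library these were 2, 6 and 9 in the untreated, none in the constricted, and 3 and 0 in the dilated samples. Of all nuclei, 195 barcodes were shared between libraries, and 9 endothelial nuclei carried one of them. The main results are given with and without the nuclei called doublets, whereas no alternative left out the nuclei with shared barcodes.

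The label was first checked against genes that mark endothelium, in CPM, the count of a transcript scaled to 1e6 UMIs summed over the endothelial nuclei of a library. Flt1 (VEGF receptor 1, chromosome 5, 147561604 to 147726011, minus strand, mm10) had 4848, 4968 and 4221 CPM in the untreated libraries, 5409, 4412 and 4251 in the constricted and 4377 and 5253 in the dilated. Tek (the angiopoietin receptor Tie2, chromosome 4, 94739289 to 94874976, plus strand) had 1008, 1158 and 978 CPM in the untreated libraries, 1214, 1096 and 1302 in the constricted and 1114 and 639 in the dilated. Flt1 was therefore steady across libraries, and Tek was lowest in dilated library 2. Erg (an ETS transcription factor, chromosome 16, 95359169 to 95586593, minus strand) had 368, 297 and 316 CPM in the untreated libraries, 132, 267 and 191 in the constricted and 575 and 494 in the dilated. The 3 groups did not overlap for Erg, and how many genes separate in this way was not counted. Plvap (the protein of the diaphragm of fenestrae, chromosome 8, 71497765 to 71511752, minus strand) had 116, 203 and 104 CPM in the untreated libraries, 530, 1203 and 306 in the constricted and 575 and 82.4 in the dilated, and varied more between libraries than the other 3. In the untreated libraries the mean over 3 libraries was 59.9 times that of the next highest cell type for Flt1 (4679 ± 401 (SD, n = 3) against 78.2 in stroma 2), 36.8 times for Tek, 55.2 times for Erg and 11.7 times for Plvap, and all 4 were highest in the endothelial nuclei.

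**Figure D1:**
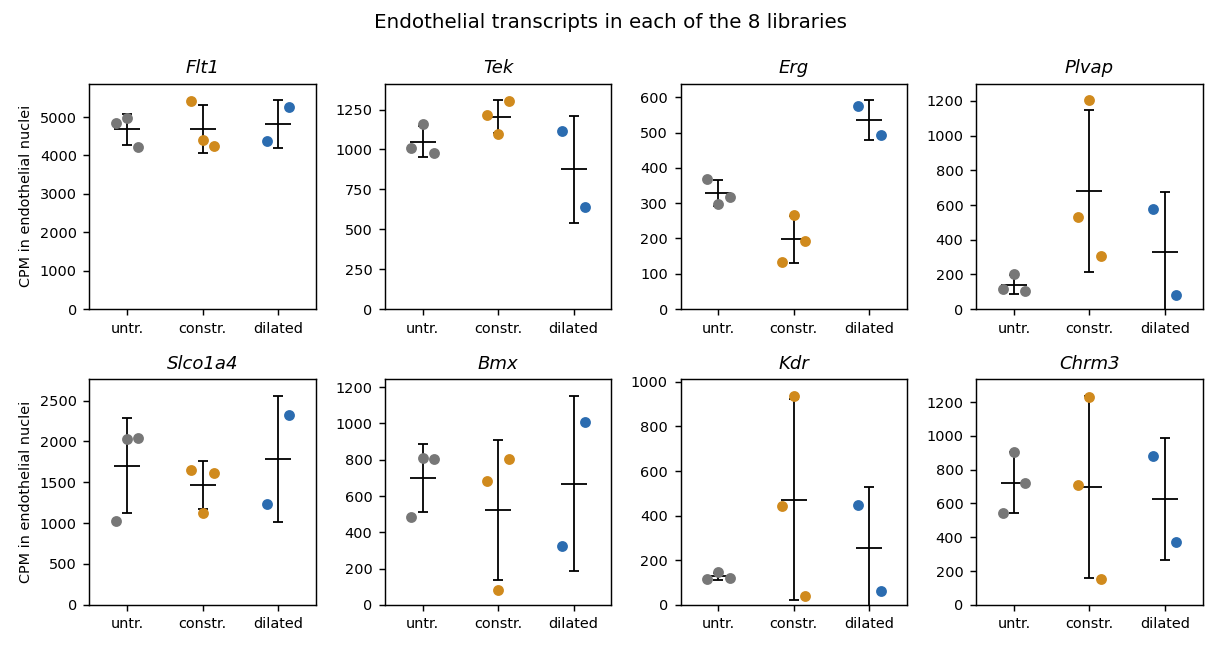
Level of 8 transcripts in the endothelial nuclei of each library, in CPM on a linear axis from 0. Points are libraries (3 untreated, 3 constricted, 2 dilated), and horizontal bars with whiskers are the mean and SD. Flt1 was steady, whereas Plvap and Kdr ranged widely within the constricted and the dilated libraries.

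RNA of other cells was present in the endothelial nuclei. Of 10 pericyte markers (Pdgfrb, Rgs5, Notch3 and others) 5 had 3 or fewer UMIs over all 273 nuclei, and the 10 together reached 99.3 CPM in the untreated libraries. The 10 leukocyte markers summed to 89.9 CPM, against 7955 in the leukocytes, and Ptprc (CD45) had a UMI in 1 of 273 nuclei. The 8 markers of stroma 1, the melanocyte-like cells of the stroma, were the most abundant, at 3631 CPM in the untreated libraries, against 31235 in stroma 1 itself. This list includes pigment genes and does not single out stroma 1. It also reached 11292 CPM in the iris pigment epithelium, 8292 in the dilator muscle and 6443 in the ciliary body cells. In the endothelial nuclei the lists for iris and ciliary epithelium (591 CPM), dilator muscle (558), smooth muscle (463) and stroma 2 (425) lay between the leukocyte and stroma 1 lists. Smooth muscle markers were at 373 CPM in the constricted and 134 in the dilated libraries. Dct, a pigment enzyme of the stroma 1 list, had a UMI in 52.7% of the endothelial nuclei and in 49.1% of the leukocytes, which should lack it. It had one in 100% of stroma 1, 99.7% of dilator and 99.5% of ciliary body nuclei, and its source was not tested. This list moved with the conditions: its summed level in the endothelial nuclei was 3355, 2741 and 4796 CPM in the untreated libraries, 1303, 134 and 1149 in the constricted and 2596 and 2493 in the dilated. In leukocytes it was 3509, 2660 and 1417, then 4140, 3446 and 2598, and 1717 and 1942.

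Next the transcripts most particular to the endothelial nuclei were listed. Of 22873 genes, 3402 had at least 30 endothelial UMIs over the 8 libraries and at least 1 in each. Of these, 855 were highest in the endothelial nuclei in the untreated libraries, 235 by more than 2-fold over the next of the 9 other types and 62 by more than 8-fold. Because the nuclei were clustered on the same counts, these levels are a description and no test is given. The 25 genes with the largest log2 ratio to the next type (with 5 CPM added to both) ran from 7.48 for Slco1a4 to 4.37 for Fam198b, the next gene below them being at 4.35, and all 25 were above the next type in each of the 3 untreated libraries.

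These 25 fall into a few kinds by what they encode. The transporter Slco1a4, an organic anion carrier of the blood-brain barrier, had 1028, 2032 and 2042 CPM in the untreated libraries (1700 ± 582 (SD, n = 3)), against a mean of 4.54 in sphincter 2, the next type. The receptors and receptor-associated proteins were Flt1, Tek, Tie1, the phosphatase Ptprb (VE-PTP, which acts on Tie2; 1202, 1310 and 1167 CPM, 196 times the next type) and the adhesion G protein-coupled receptors Adgrf5 and Adgrl4 (397 ± 75.6 and 420 ± 76.0 CPM, 182 and 121 times the next type). Bmx, a cytoplasmic kinase of arterial endothelium, had 485, 810 and 805 CPM and a log2 ratio of 6.55. Edn1, which encodes the vasoconstrictor endothelin 1, had 272, 310 and 506 CPM and a log2 ratio of 5.94, with under 1 CPM (0.99) in the next type. Regulators of the cytoskeleton and of cell junctions were Fgd5 and Arhgef15 (guanine nucleotide exchange factors) and Ccm2l, and the transcription factors were Ebf1 (2366, 2342 and 2197 CPM, 39.6 times stroma 2) and Erg. Cyyr1, a small membrane protein, had 1338, 1354 and 1144 CPM, 478 times the next type. The others were Ushbp1, Acer2, 4930578C19Rik, Igfbp3, Gm12866, Prom1, Cd34, Zfp366, Kif26a and Fam198b. Acer2 and Igfbp3 were uneven between libraries: Acer2 had 1338 CPM in untreated library 1 and 380 and 339 in libraries 2 and 3, and Igfbp3 had 485 against 152 and 144.

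**Figure D2:**
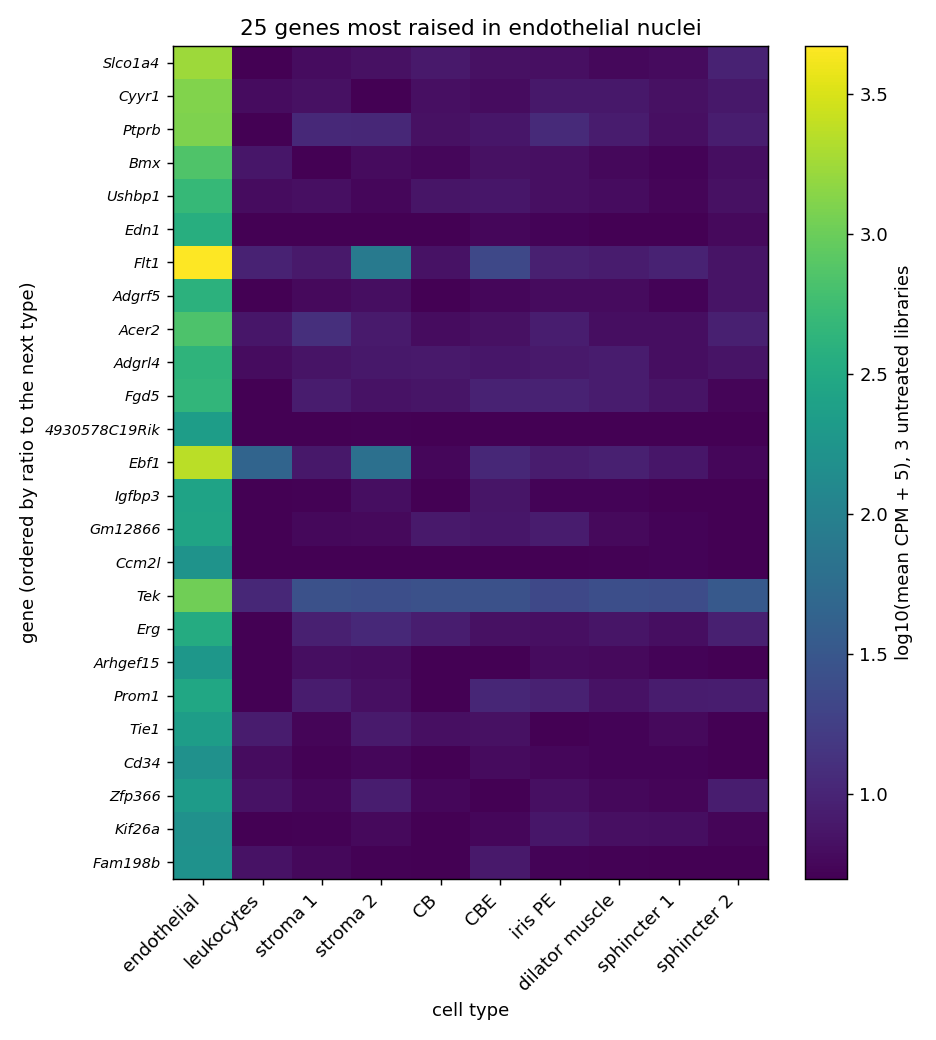
The 25 leading genes of the endothelial nuclei (rows, ordered by the ratio to the next type) in the 10 cell types (columns), coloured by log10 of the mean CPM plus 5 over the 3 untreated libraries. Flt1 in stroma 2 (78.2 CPM), Ebf1 in stroma 2 and leukocytes and Tek in the types other than leukocytes stand above most other entries outside the endothelial column.

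The promoters of these genes were searched for the core sites of the transcription factor families known for endothelium. Windows of the 250 bases before each RefSeq start site (GRCm38.p6) were held for 18 of the 25 genes and for 27025 genes in all. GGAAGT or AGGAAG, cores that ETS factors such as Erg bind, lay on either strand in the windows of 13 of the 18 (72.2%) and of 42.0% of all genes, with the 2 overlapping where AGGAAGT occurs. The SOX core AACAAT was in 4 of 18 (22.2%, against 10.9% of all), the GATA core AGATAA in 1 (5.56% against 11.4%) and the forkhead core GTAAACA in 0 (against 3.54%). A match is a stretch of letters and not a measured site, and no difference between these shares was tested. Windows of a receptor gene with several ETS cores, of its angiopoietin pathway counterpart Tie1 and of the leading transporter gene are given 5′ to 3′ on the strand of the gene, with the ETS cores (or their reverse complements) in capitals: Flt1 at chr5:147726012-147726261, Tie1 at chr4:118489850-118490099 and Slco1a4 at chr6:141856221-141856470, all on the minus strand.
Flt1: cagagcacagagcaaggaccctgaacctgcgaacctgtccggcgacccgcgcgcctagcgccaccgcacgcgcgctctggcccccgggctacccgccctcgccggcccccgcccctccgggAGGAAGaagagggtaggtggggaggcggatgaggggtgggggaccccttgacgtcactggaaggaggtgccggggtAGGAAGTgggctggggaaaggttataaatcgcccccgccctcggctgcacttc
Tie1: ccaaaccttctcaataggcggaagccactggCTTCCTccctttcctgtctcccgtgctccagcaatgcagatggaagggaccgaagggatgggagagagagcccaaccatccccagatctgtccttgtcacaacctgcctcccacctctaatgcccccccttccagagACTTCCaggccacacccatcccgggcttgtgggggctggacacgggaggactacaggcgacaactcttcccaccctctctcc
Slco1a4: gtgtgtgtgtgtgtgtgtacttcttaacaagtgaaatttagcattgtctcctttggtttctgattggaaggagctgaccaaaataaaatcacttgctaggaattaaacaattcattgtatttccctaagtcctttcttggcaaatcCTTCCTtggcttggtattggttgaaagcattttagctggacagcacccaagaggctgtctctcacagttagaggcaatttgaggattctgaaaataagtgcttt
The Flt1 window holds 3 matches, the last of them the overlapping pair AGGAAGT, the Tie1 window 2 and the Slco1a4 window 1.

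Genes of known vascular roles were then taken by list, counting the members with at least 30 endothelial UMIs and, among these, the ones highest in the endothelial nuclei of the untreated libraries. Over all genes 1132 of 4820 were highest there, and the median log2 ratio to the next type was -0.47. Of 30 pan-endothelial genes 29 had the UMIs and 28 were highest in the endothelial nuclei, 26 by more than 2-fold, with a median log2 ratio of 3.35. The exception was Calcrl, the receptor for adrenomedullin (193 ± 16.5 CPM, against 331 in stroma 2). Of the arterial genes 12 of 13 were highest there (median 2.16), among them the Notch ligand Dll4, the connexins Gja4 and Gja5, Sox17 (267 ± 30.3 CPM), Sema3g and Efnb2. Of the venous genes 4 of 6 were, and Nr2f2, the factor that sets venous identity, was lower in endothelial nuclei (108 ± 76.2 CPM) than in stroma 2 (954), while Ackr1, Selp and Slc38a5 had 0 UMIs. In the 681765 endothelial UMIs a count of 0 allows up to 4.40 CPM (3 counts, counting error only).

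Of 20 barrier genes 14 had the UMIs and 12 were highest in the endothelial nuclei, 10 by more than 2-fold. The drug efflux transporter Abcg2 had 562, 924 and 811 CPM in the untreated libraries, 8.85 times stroma 2. The other efflux pump of the list, Abcb1a, had 582, 652 and 644 CPM, 3.17 times stroma 2. The tight junction protein Cldn5 had 718, 873 and 1052 CPM, 7.86 times stroma 2, and Ocln, Tjp1 and Lsr of the junctions were also highest in the endothelial nuclei. The glucose transporter Slc2a1 (1016 ± 105 CPM) was 1.38 times the level in the CB. Mfsd2a, a lipid transporter of brain capillaries, had 20 UMIs and Tfrc 4, while Slc38a5 had 0. Of the 7 measured fenestration genes, 4, namely Plvap, Kdr, Cavin2 and Aqp1 (a water channel), were highest in the endothelial nuclei.

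Of the VEGF and angiopoietin list 8 of 10 measured members were highest in the endothelial nuclei (median 3.30), the receptors Flt1, Kdr, Flt4, Tek and Tie1 among them but not the co-receptors Nrp1 and Nrp2. Vegfa had 2 endothelial UMIs and its highest level in the CB (143 CPM), and Angpt1 had 9, with the highest level in sphincter 1 (166 CPM). The ligand Vegfc had 307 ± 34.0 CPM in the endothelial nuclei, 4.33 times stroma 1. Lymphatic endothelium was not apparent: of the lymphatic and Schlemm canal list 1 of 4 measured members, Flt4, was highest in the endothelial nuclei, Prox1 had 7 UMIs in 4 nuclei and Lyve1 0. Of 15 Wnt and beta-catenin genes 7 were highest there, the transcription factor Lef1 by 3.68 times over the next type (987 ± 22.9 CPM) and the receptor Fzd6 by 2.72 times. Of the Notch genes 6 of 8 were, with Notch4 at 22.8 times stroma 2, of the TGF-beta and BMP genes 8 of 16, with the BMP9 receptor Acvrl1 (304 ± 16.7 CPM) 11.4 times stroma 2, and of the transcription factor list 12 of 17. Phosphodiesterase genes (1 of 8), immediate early genes (2 of 6) and glucocorticoid-responsive genes (1 of 7) were counted in the same way. Of the genes of leukocyte adhesion 8 of 9 were highest in the endothelial nuclei, and of those of vascular tone and haemostasis 8 of 11, including the nitric oxide synthase Nos3 (121 ± 17.9 CPM, 42.2 times the next type). Of the shear stress genes 4 of 9 were, of the basement membrane genes 8 of 13, of the endothelial activation genes 4 of 5, of the capillary genes 2 of 4 and of the tip cell genes 2 of 2. Among the lists for other cells, 0 of 3 measured smooth muscle genes and 0 of 1 leukocyte gene were highest there. The count was 0 of 5 for stroma 1, 0 of 4 for stroma 2 and 0 of 3 for the epithelia. For dilator and sphincter muscle it was 0 of 4 and 0 of 1. The lists for pericytes and Schwann cells had 0 members with enough endothelial UMIs, so this count cannot say anything about them. Of the erythrocyte list the 1 measured member, Hbb-bs, was highest there.

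Within the endothelial nuclei these markers did not fall on the same nuclei. Flt1 had a UMI in 264 of 273 nuclei (96.7%) and Tek in 218 (79.9%). Slco1a4 was seen in 190 (69.6%, exact 95% interval 63.8 to 75%), Bmx in 142 (52.0%), Plvap in 55 (20.1%, 15.6 to 25.4) and Kdr, VEGF receptor 2, in 67 (24.5%). In leukocytes, which should lack them, the shares were 0% for Slco1a4 (0 of 387, which allows up to 0.949% by the exact interval), 0.775% for Bmx, 0.517% for Plvap and 0.258% for Kdr, at a median of 1971 UMIs per nucleus. With every nucleus thinned to 1000 UMIs, over 255 endothelial nuclei, the shares were 63.9% for Slco1a4, 35.3% for Bmx, 16.1% for Plvap and 15.7% for Kdr. Plvap and Kdr tended to be found in the same nuclei, since 41 of the 55 nuclei with Plvap also had Kdr (74.5%), against 11.9% of the others. Slco1a4 was found in 11 nuclei with Plvap (20.0%) and in 82.1% of those without, and Bmx in 6 (10.9%) and 62.4%. Flt1, present in nearly all nuclei, was in 98.2% of the nuclei with Plvap and 96.3% of those without, whereas Cldn5 was in 49.1% and 83.9% and Vwf in 9.09% and 43.1%. The nuclei with Plvap were somewhat deeper, with a median of 2382 against 1793 UMIs. The intervals cover counting error only.

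For a description, the nuclei were sorted by these 4 genes. This division was chosen after the values had been seen, so none of its differences was tested. There were 44 nuclei with a UMI of Plvap or Kdr and none of Slco1a4 or Bmx (16.1%, median 2366 UMIs, 1 called a doublet), and 173 with Slco1a4 or Bmx and neither Plvap nor Kdr (63.4%, median 1794 UMIs, 16 called doublets). A further 37 had UMIs of both pairs and 19 of neither. Other transcripts also differed between the kinds, with UMIs pooled over all nuclei of a kind. Of the 44 Plvap/Kdr nuclei, 18 were from dilated library 1 and 7 from constricted library 2. The untreated libraries gave 12, 52 and 46 of the 173 Slco1a4/Bmx nuclei. The pooled values therefore mix kind with library and treatment. Of the 8 libraries 5 held at least 3 nuclei of each kind. Plpp1, a lipid phosphatase, had 253 UMIs (2059 CPM) in the Plvap/Kdr nuclei and 38 (91.6 CPM) in the more numerous Slco1a4/Bmx nuclei. Emcn, the sialomucin endomucin, had 254 and 96 (2067 and 231 CPM), and the retinoic acid degrading enzyme Cyp26b1 had 59 and 1. The mechanically gated channel Piezo2 had 85 and 8, the ligand Bmp6 55 and 12, the VEGF co-receptor Nrp1 179 and 104 (1457 and 251 CPM) and the endothelin receptor Ednrb 46 and 16. Plpp1, Emcn, Piezo2, Hecw2, Exoc3l2 and Pdia5 were higher in the Plvap/Kdr nuclei in 5 of these 5 libraries, while Sema3a and D5Ertd615e were so in 1.

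On the other side, Paqr5 had 0 UMIs in the Plvap/Kdr nuclei and 290 (699 CPM) in the Slco1a4/Bmx nuclei, at least 28.6-fold higher against a floor of 3 counts over the group. Atp8b1 (0 and 152), Gm12866 (0 and 148), Adh1 (0 and 138) and Ctsh (0 and 124) were alike. Tbx1, a member of the stroma 1 list used above for RNA of other cells, had 0 and 118 UMIs, the latter in 58 nuclei. Whether the endothelial cells make it was not tested. Vcam1, an adhesion molecule for leukocytes, had 2 and 266, the Wnt inhibitor Dkk2 2 and 216, the matrix protein Mgp 2 and 193, and von Willebrand factor (Vwf), which is stored for haemostasis, 1 and 109. Slc2a1 had 14 and 572 (114 and 1379 CPM, 12.1-fold higher) and Rundc3b 39 and 1214 (9.22-fold higher). Paqr5, Dkk2, Mgp, Vwf, Slc2a1 and Rundc3b were higher in the Slco1a4/Bmx nuclei in 5 of the 5 libraries with both kinds. Adh1, Tbx1 and Vcam1 were so in 4. By list, and leaving out the 4 genes that defined the kinds, 11 of 12 barrier genes were more than 2-fold higher in the Slco1a4/Bmx nuclei and none was on the other side, with a median log2 ratio of -2.11. These were Cldn5, Ocln, Tjp1, Lsr, Slc2a1, Slco1c1, Abcb1a, Slc7a5, Foxq1, Itih5 and Spock2. Abcg2 was the exception to that limit (529 and 976 CPM). Of 10 arterial genes 6 were more than 2-fold higher in the Slco1a4/Bmx nuclei and none in the others (median -1.32). The venous list lay on the same side, with 3 of 6 (Vwf, Vcam1 and Tshz2) more than 2-fold higher in the Slco1a4/Bmx nuclei and none in the others (median -1.45). Of 26 pan-endothelial genes 7 were more than 2-fold higher in the Plvap/Kdr nuclei and 4 in the others (median 0.23). All 3 measured members of the lymphatic and Schlemm canal list, Flt4, Itga9 and Npnt, were more than 2-fold higher in the Plvap/Kdr nuclei, as were 5 of 16 TGF-beta and BMP genes (Eng, Bmpr2, Bmp6, Smad6 and Tgfb1). Npnt had 21 UMIs in 5 Plvap/Kdr nuclei. It was higher in the Plvap/Kdr nuclei in 2 of the 5 libraries and in the Slco1a4/Bmx nuclei in 2. Over all 4012 genes with 30 UMIs the median was -0.02, and 243 genes were over 2-fold higher on the Plvap/Kdr side and 357 on the other.

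**Figure D3:**
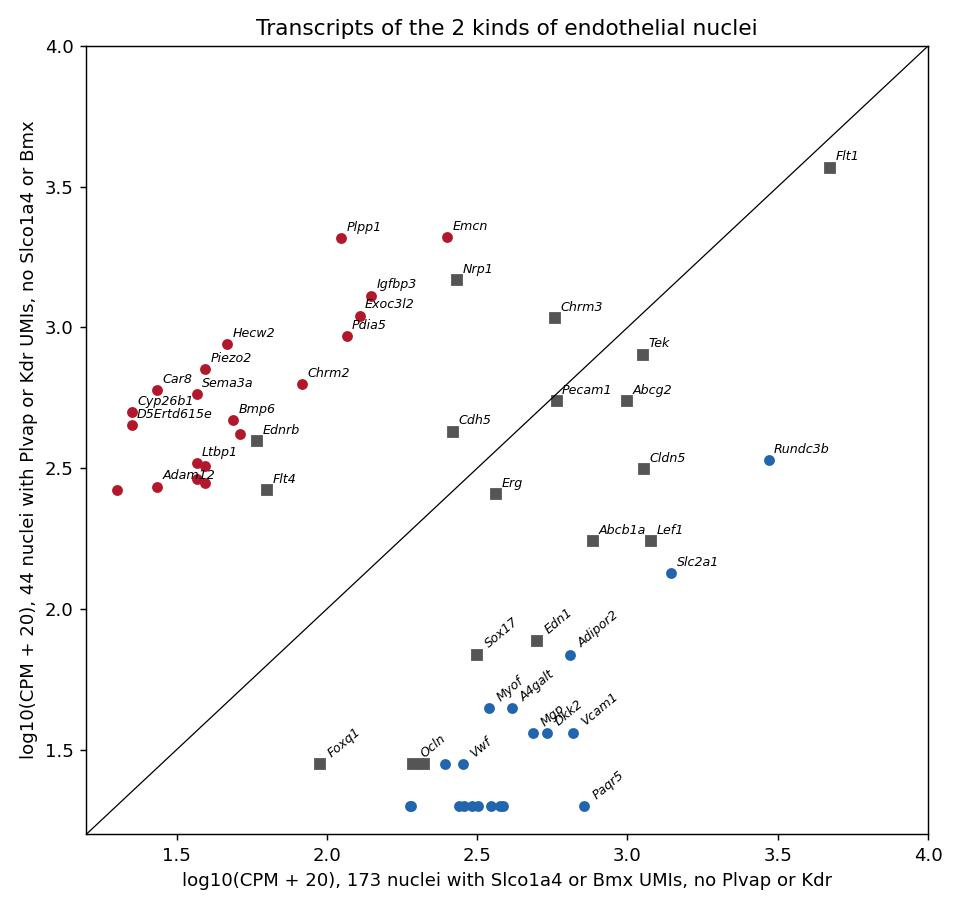
Level in the 44 Plvap/Kdr nuclei (vertical) against the level in the 173 Slco1a4/Bmx nuclei (horizontal), both as log10 of CPM plus 20, with UMIs pooled over the 8 libraries. Red points are the genes most raised in the Plvap/Kdr nuclei, blue points those most raised in the Slco1a4/Bmx nuclei, squares other genes named in the text, and the line marks equal levels. Flt1, Tek, Erg and Pecam1 lie near the line, whereas Slc2a1, Cldn5, Lef1 and Edn1 lie below it and Plpp1, Emcn and Nrp1 above it.

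The 2 kinds of nuclei were unevenly spread over the libraries. The Plvap/Kdr nuclei were 10.0%, 7.69% and 7.81% of the endothelial nuclei in the untreated libraries, 17.4%, 58.3% and 12.5% in the constricted and 36.7% and 4.17% in the dilated. The Slco1a4/Bmx nuclei were 60.0%, 80.0% and 71.9%, then 56.5%, 25.0% and 81.2%, and 32.7% and 75%. The constricted libraries were all above the untreated in the share of Plvap/Kdr nuclei, with 2 to 7 such nuclei each. This did not hold for either gene alone. Constricted libraries 1 and 2 were above every untreated library for both genes. In constricted library 3, Plvap and Kdr each had a UMI in 1 of 16 nuclei (6.25%), below every untreated library. The lowest untreated shares were 10.8% for Plvap and 13.8% for Kdr. The 306 CPM of Plvap in constricted library 3 came from 1 nucleus. In the share of Plvap/Kdr nuclei the dilated libraries lay on both sides of the untreated. The groups overlapped in the share of Slco1a4/Bmx nuclei. The libraries also differed in how much ciliary tissue they held: ciliary body (CB) and ciliary body epithelium (CBE) nuclei made up 11.4%, 5.02% and 3.54% of the untreated libraries, 7.07%, 12.5% and 2.86% of the constricted and 14.9% and 5.83% of the dilated. The highest 2 shares of Plvap/Kdr nuclei were in the 2 libraries with the most ciliary nuclei, constricted library 2 and dilated library 1, while untreated library 1, the third in ciliary nuclei, had 2 such nuclei of 20 (10.0%, exact 95% interval 1.23 to 31.7). From which tissue either kind came cannot be told apart, since no label separates the vessels of the iris from those of the ciliary body.

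**Figure D4:**
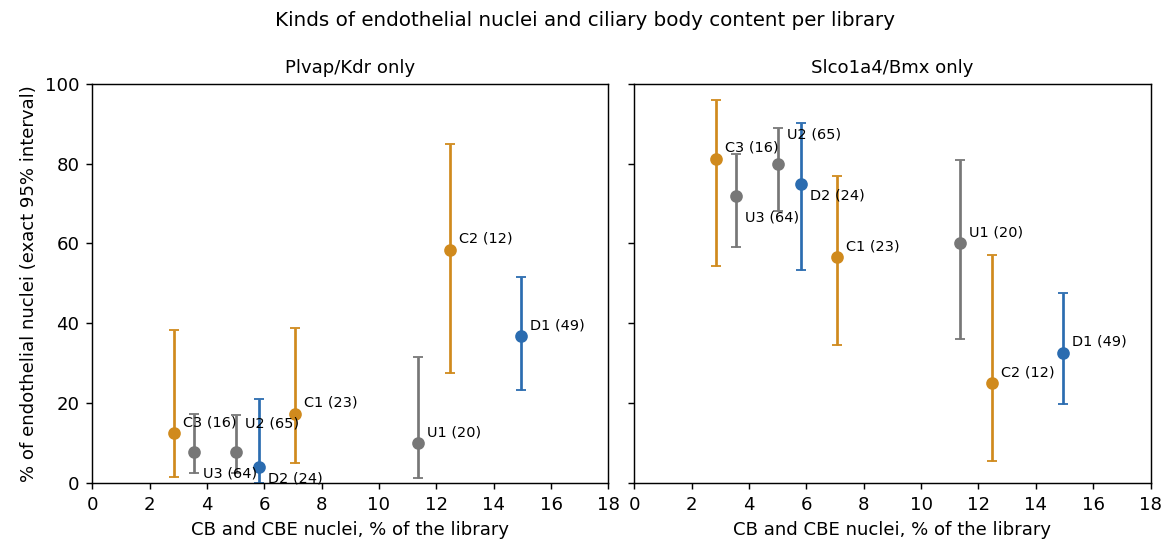
Share of the endothelial nuclei that were of the Plvap/Kdr kind (left) or the Slco1a4/Bmx kind (right) in each library, against the percent of CB and CBE nuclei in the library. Whiskers are exact 95% intervals, and labels give the library (U untreated, C constricted, D dilated) and its number of endothelial nuclei. C2 (58.3%) and D1 (36.7%) stand highest on the left and, with 25.0% and 32.7%, lowest on the right.

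Because the drugs act on muscarinic and adrenergic receptors, their receptor genes were examined. Of 14, 2 had 30 endothelial UMIs. Chrm3, the M3 muscarinic receptor (chromosome 13, 9875486 to 10360847, minus strand), had 543, 905 and 719 CPM in the untreated libraries, 706, 1230 and 153 in the constricted and 880 and 371 in the dilated. This was below the level in sphincter 1 (3958 CPM), its site of highest expression, near that in sphincter 2 (665) and above that in leukocytes (66.5), stroma 1 (13.1), stroma 2 (13) and dilator muscle (22.3). It had a UMI in 148 of 273 endothelial nuclei (54.2%, exact 95% interval 48.1 to 60.2), against 2.07% of leukocytes and 2.98% of stroma 1 nuclei. After thinning to 1000 UMIs the shares were 38.8%, 1.67% and 0.87%. The UMIs of Chrm3 were set beside those of other sphincter transcripts. Chrm3 and Syt1 stood at 0.916 to 1 in sphincter 1, at 0.753 in stroma 1, 1.01 in stroma 2 and 0.824 in leukocytes, but at 520 to 38 UMIs (13.7) in the endothelial nuclei, and at 459 to 6 (76.5) without the nuclei called doublets. Chrm3 and Ctnna3 stood at 3.07 to 1 in sphincter 1, 0.335 in stroma 1, 0.264 in stroma 2 and 0.667 in leukocytes, and at 20.8 in the endothelial nuclei. The part of sphincter RNA in the endothelial Chrm3 was not tested. Chrm3 was found in both kinds of nuclei, in 32 of the 44 Plvap/Kdr and 83 of the 173 Slco1a4/Bmx nuclei.

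Chrm2, the M2 receptor, had 136, 69.6 and 155 CPM in the untreated libraries, 66.2, 321 and 0 in the constricted and 447 and 124 in the dilated, and it had a UMI in 46 of 273 nuclei (16.8%), against 5.17% of leukocytes. After thinning the shares were 9.41% and 2.23%. Its highest level was in the dilator muscle (630 CPM in the untreated libraries). It had 75 UMIs in the Plvap/Kdr nuclei and 26 in the Slco1a4/Bmx nuclei (610 and 62.7 CPM). Its ratio to Adra1a, another dilator transcript, was 129 to 27 (4.78) in the endothelial nuclei, 1.17 in the dilator and 1.63 in leukocytes over the 8 libraries, but 2.25, 1.31 and 4.11 in the untreated libraries. Dilated library 1 gave 63 of the 129 Chrm2 UMIs. Adra1a itself, the receptor for phenylephrine in the dilator, had a UMI in 12 of 273 nuclei (4.40%), against 3.88% of leukocytes. Chrm4, Adra1d, Adra2b and Adra2c had 0 UMIs.

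The next question was whether drug-induced constriction or dilation changed the share of endothelial nuclei. It was 1.35%, 1.02% and 0.986% of all nuclei in the untreated libraries, 0.543%, 0.942% and 0.463% in the constricted and 0.669% and 0.648% in the dilated. Every treated library was below every untreated library, but this did not hold of iris nuclei alone (leaving out CB and CBE), where constricted library 2 had 1.076% and untreated libraries 2 and 3 had 1.07% and 1.02%, nor without doublets, where they had 0.949%, 0.933% and 0.857%. The means were 1.12% ± 0.203 (SD, n = 3), 0.649% ± 0.257 (n = 3) and 0.658% ± 0.0154 (n = 2), so that the dilated libraries were 0.46 and the constricted libraries 0.47 percentage points below the untreated. In an exact two-sided permutation test over libraries p = 0.1 for each of the 2 comparisons (0.1 after Benjamini-Hochberg adjustment), which is the smallest value that 3 libraries against 2 or 3 can give, so that the design could not reach 0.05. The 2 comparisons share the untreated libraries. Fewer endothelial cells and a lower yield of their nuclei cannot be told apart. Without the nuclei called doublets, most of which were in untreated libraries among the endothelial nuclei, the differences were -0.36 (exact permutation p = 0.2) and -0.35 (p = 0.3) percentage points.

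Transcript levels in the endothelial nuclei were then compared between conditions over the 8 libraries, with 1352 genes passing the filter on low counts. A gene was called changed at an absolute log2 fold change over 0.6 and an adjusted p under 0.05 by edgeR's quasi-likelihood test with Benjamini-Hochberg adjustment. None was called with dilation, with constriction or between the treated groups (0% of the genes tested in each). At an unadjusted p under 0.05 there were 90, 146 and 69 genes, and DESeq2 called 3, 3 and 0. The median SE of a log2 fold change was 0.42, 0.43 and 0.48. The groups' libraries did not overlap for 24.7% of the genes with dilation, 14.1% with constriction and 16.3% between the treated groups, so that a lack of overlap alone says little. The first 2 comparisons share the untreated libraries, and the genes below are those with the smallest p-values.

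With dilation, Pde7b, a phosphodiesterase that degrades cyclic AMP, had 310, 335 and 506 CPM in the untreated libraries and 2270 and 1195 in the dilated, with 684, 989 and 153 in the constricted. Its log2 fold change was 2.09 ± 0.46 (SE), and the adjusted p was 0.136. In untreated libraries its highest level was in stroma 1 (1413 CPM). Snrk, a kinase related to AMPK, had 194, 133 and 138 CPM in the untreated libraries, 265, 348 and 230 in the constricted and 638 and 371 in the dilated (log2 fold change with dilation 1.75 ± 0.35, adjusted p = 0.109). Insr, the insulin receptor, had 718, 557 and 403, then 993, 1203 and 919, and 2071 and 968 CPM (1.44 ± 0.35, adjusted p = 0.250). For these 3 genes both dilated libraries lay above all untreated libraries, and dilated library 1, which also had the larger share of Plvap/Kdr nuclei (36.7%), was the higher. Snrk and Insr were 4.56 and 4.01 times higher in the Plvap/Kdr than in the Slco1a4/Bmx nuclei. These ratios pooled the libraries, and 18 of the 44 Plvap/Kdr nuclei came from dilated library 1. Kind and dilation cannot be told apart in them. Without dilated library 1 Insr gave 0.83, and without nuclei with a Plvap or Kdr UMI Insr gave 1.46 and Snrk 1.54. Without the nuclei called doublets Pde7b gave 1.94 and Snrk 1.53. Kcnip4, a potassium channel interacting protein, had 562, 437 and 696 CPM in the untreated libraries, 287, 80.2 and 153 in the constricted and 135 and 41.2 in the dilated (with dilation -2.52 ± 0.49, adjusted p = 0.109), and Npsr1, the neuropeptide S receptor, gave -2.84 ± 0.59 (adjusted p = 0.109). Kcnip4 and Npsr1 were more abundant in other cells (8601 CPM in the CB and 1958 in the iris PE of untreated libraries), and without the doublets Kcnip4 gave -1.21 (adjusted p = 0.993) while Npsr1 no longer passed the filter.

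With constriction, the 5 genes of smallest p were all lower. Trpm3, a cation channel, had 659, 563 and 357 CPM in the untreated libraries, 155, 53.5 and 38.3 in the constricted and 270 and 330 in the dilated (with constriction -2.53 ± 0.48). Tyr, the enzyme that starts melanin synthesis, had 272, 361 and 489, then 22.1, 0 and 153, and 106 and 165 CPM (-3.05 ± 0.67). Oca2, a melanosome channel, gave -2.75 ± 0.57, Bnc2, a zinc finger protein, -3.0 ± 0.66 and Il1rapl1, a neuronal adhesion receptor, -1.88 ± 0.41, and the adjusted p was 0.0890 for each of the 5. Each was more abundant in a type other than the endothelial cells, namely stroma 1 for Tyr, Oca2 and Bnc2, the CBE for Trpm3 and the CB for Il1rapl1. Of the stroma 1 marker list, which itself includes Tyr, 5 of 5 tested members were lower with constriction (median log2 fold change -2.21, against 0.04 over all genes tested). The constricted libraries had 0 endothelial nuclei called doublets. Dilated library 2 also had 0, with Trpm3 at 330 and Tyr at 165 CPM. The part of RNA of other cells, or of doublets, in these values was not tested. Without the doublets Trpm3 gave -1.35, Oca2 -1.83 and Il1rapl1 -0.57, none of them called, and Tyr and Bnc2 were not tested.

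Between the treated groups, the taurine transporter Slc6a6 had 1391, 1792 and 2030 CPM in the constricted libraries and 653 and 700 in the dilated, with 1125, 728 and 736 in the untreated (dilated against constricted -1.36 ± 0.34, adjusted p = 0.656). Erg, given above for each library, had a difference of 1.46 ± 0.38 (adjusted p = 0.656). The chaperone Hspa12b had 574, 562 and 536 CPM in the constricted libraries and 241 and 206 in the dilated, with 330, 247 and 270 in the untreated (-1.31 ± 0.35, adjusted p = 0.656). Samd12 gave 2.30 ± 0.58 and the scaffold protein Slc9a3r2 -2.02 ± 0.58, with the same adjusted p of 0.656. The libraries of the groups did not overlap for these 5 genes, which were chosen for their small p, nor for 16.3% of all genes tested.

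By list, none of the members tested was called in any comparison. Of 25 pan-endothelial genes 19 had a positive log2 fold change with dilation (median 0.28) and 22 with constriction (median 0.59), against medians of -0.01 and 0.04 over all genes tested. The summed pan-endothelial level was 19102, 18981 and 16701 CPM in the untreated libraries, 23247, 25859 and 22632 in the constricted and 20791 and 18747 in the dilated. RNA of other cells moved the opposite way with constriction, with the stroma 1 list at 862 against 3631 CPM in the untreated, and its part in these values was not tested. The 5 tested fenestration genes had positive values in both (medians 1.09 and 1.13). They include Plvap (with constriction 2.20 ± 0.56, adjusted p = 0.125; with dilation 1.27 ± 0.59, adjusted p = 0.740) and Aqp1, which had 388, 228 and 196 CPM in the untreated libraries, 883, 348 and 460 in the constricted and 816 and 659 in the dilated (with dilation 1.49 ± 0.40, adjusted p = 0.361). Plvap and Kdr themselves define the Plvap/Kdr nuclei, whose share differed between libraries. Aqp1 was lower in constricted library 2 than in constricted library 1, but higher in dilated library 1 than in dilated library 2. Whether Aqp1 followed that share was not tested. The 9 barrier genes had medians of 0.26 and 0.03, the 8 arterial genes -0.39 and -0.44 and the 11 TGF-beta and BMP genes 0.02 and 0.36. Slco1a4 had a difference of 0.00 with dilation (95% interval -0.82 to 0.81) and -0.28 with constriction (-1.03 to 0.48), and Chrm3 -0.24 (-1.32 to 0.85) and -0.08 (-1.10 to 0.93), intervals that include changes of more than 1.5-fold either way for dilation. Mt1, a metallothionein of the glucocorticoid-responsive list, had 175, 114 and 173 CPM in the untreated libraries, 177, 26.7 and 191 in the constricted and 447 and 433 in the dilated (with dilation 1.48 ± 0.42, adjusted p = 0.361).

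**Figure D5:**
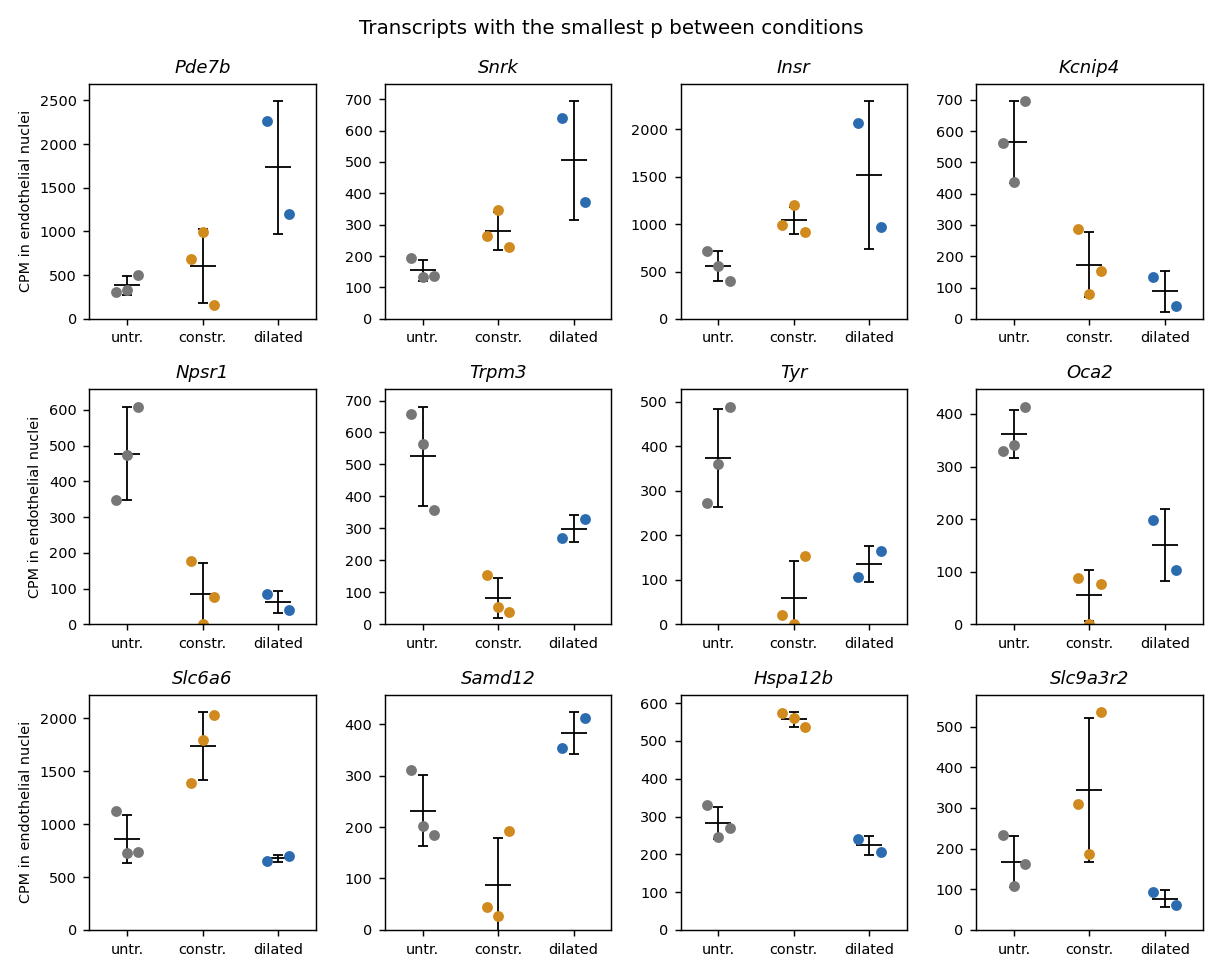
Level in CPM of genes with the smallest p-values between conditions in the endothelial nuclei of each library, on linear axes from 0. Points are libraries, and bars with whiskers are the mean and SD. Both dilated libraries lie above the 3 untreated for Pde7b, Snrk and Insr, and none of these genes was called.

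Whether the endothelial nuclei responded to dilation differently from other cells of the same libraries was tested in joint fits with a term for each library. A positive value means that dilated minus untreated was larger in the endothelial nuclei. Against stroma 2, the more fibroblast-like stroma, 10 of 1352 genes (0.74%) differed, 3 with positive and 7 with negative values. Cldn5 had 881 CPM in untreated and 1115 in dilated endothelial nuclei, against 112 and 502 in stroma 2, a difference in log2 effect of -1.97 ± 0.40 (SE, adjusted p = 0.0234). In stroma 2 it had 99.1, 105 and 132 CPM in the untreated libraries and 373 and 631 in the dilated. Pde7b had 384 and 1732 CPM in the endothelial nuclei, against 329 and 406 in stroma 2 (1.72 ± 0.36, adjusted p = 0.0254). The others were Fry (-2.10 ± 0.35, adjusted p = 0.0176), Gpnmb, Sntb1, Mgll, Ank2 and Kcnip4 with negative and Nav2 and Sash1 with positive values. Without the nuclei called doublets 1 gene was called, Fry (-2.11, adjusted p = 0.0416), while Cldn5 (-1.98), Pde7b (1.71) and Nav2 (2.20) each had an adjusted p of 0.0855 and Sash1 (1.37) one of 0.123. The other 5 shrank: Gpnmb went from -2.30 to -0.57, Sntb1 from -1.87 to -0.57, Mgll from -1.75 to -0.70, Ank2 from -2.17 to -1.11 and Kcnip4 from -2.34 to -0.88, with adjusted p from 0.599 to 0.866.

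Against the dilator muscle 34 of 1352 genes (2.51%) differed, 11 with positive and 23 with negative values. Slc6a6 had 863 CPM in untreated and 677 in dilated endothelial nuclei, against 68.5 and 207 in the dilator (-2.04 ± 0.29, adjusted p = 0.00191). In the dilator it had 81.0, 60.8 and 63.6 CPM in the untreated libraries and 202 and 212 in the dilated. It passed the threshold under all 12 alternatives run for this test, from -2.38 to -1.95. Mat2a, which makes the methyl donor S-adenosylmethionine, had 269 and 304 CPM in the endothelial nuclei and 125 and 894 in the dilator (-2.35 ± 0.46, adjusted p = 0.0163). The nuclear long non-coding RNA Neat1 had 655 and 658 CPM in the endothelial nuclei and 833 and 2936 in the dilator (-1.88 ± 0.37, adjusted p = 0.0163). The actin-binding protein Rai14 had 467 and 463 against 540 and 2257 CPM (-2.07 ± 0.40, adjusted p = 0.0163), and Col4a1, a basement membrane collagen, 203 and 280 against 5.03 and 56.4 CPM (-2.93 ± 0.58, adjusted p = 0.0163). For these genes the dilated libraries were well above the untreated in the dilator and near them in the endothelial nuclei.

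These genes and those of stroma 2 were chosen for naming after their values were seen. Among the positive differences, Insr had 559 and 1520 CPM in the endothelial nuclei against 95.5 and 80.8 in the dilator (1.62 ± 0.33, adjusted p = 0.0192). The complement inhibitor Cd59a had 89.9 and 333 CPM against 93.1 and 49.1 (2.41 ± 0.44, adjusted p = 0.0163). In the endothelial nuclei it had 77.6, 88.6 and 104 CPM in the untreated libraries and 213 and 453 in the dilated. Chrm2 had 120 and 285 CPM against 630 and 253 (2.52 ± 0.56, adjusted p = 0.0261). Its endothelial values overlapped, with 136, 69.6 and 155 CPM in the untreated libraries and 447 and 124 in the dilated. It did not pass the filter without nuclei with a Plvap or Kdr UMI. Prkch, Prex2 and Cd200, in contrast, were abundant in the endothelial nuclei and low in the dilator (12.3, 10.2 and 70.5 CPM in the untreated libraries), where they were lower still in the dilated. The remaining calls were Pdlim5, Mgll, Pgm5, Vim, Syne1, Calcrl, Id1, Osmr, Prom1, Gpnmb, Clic4, Itgb1, Lrrfip1, Col4a2, Gab2, Cobll1, Myo1e and Slc38a2 with negative and Car8, Csgalnact1, Samd12, Rin2 and Lrmda with positive values. Without the nuclei called doublets 22 of the 34 were still past the threshold, and Insr was not (1.26, adjusted p = 0.0683). Mgll went from -1.89 to -0.99 and Gpnmb from -2.61 to -1.19 (adjusted p = 0.330 and 0.487). Without nuclei with a Plvap or Kdr UMI, an alternative chosen after seeing the data, 12 of the 34 were past the threshold, with 29 tested. Insr then gave 1.52 (adjusted p = 0.153). Which side of a difference moved is seen from the levels only, since 0 genes were called in the endothelial nuclei alone.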

How the data were processed

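Nuclei of mouse irises were profiled with a 10x 3' kit (v3) in 3 untreated, 3 constricted and 2 dilated libraries. The authors aligned reads to an mm10 pre-mRNA index with Cell Ranger 3.1.0, which also merged the libraries, and in Seurat 4.0.1 removed nuclei with over 1% mitochondrial transcripts or with under 500 or over 6000 transcripts and normalised with SCTransform. Endothelial nuclei in the deposited counts held up to 20223 UMIs, so that limit is not one on these UMIs. The files used here hold the deposited UMI counts per nucleus, which were not normalised, and the authors' cell type labels. The deposited score columns per nucleus (cell cycle scores and size factors, made by the authors in a way not given in the sources used here) were not used, nor were the authors' own tests over nuclei. In 31650 of 34357 nuclei the counts summed to the deposited total. In the others the sum differed, and the cause was not tested.

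For each library, the UMIs of a cell type were added up (Python 3.11.15, pandas 2.3.3). The mean of library CPM values in endothelial nuclei was compared with that of the next type without a test. Doublets were called with Scrublet in scanpy 1.11.5 and kept unless stated. Conditions were compared in 1 fit over the 8 libraries by edgeR 4.0.16 (quasi-likelihood test, TMM, Benjamini-Hochberg adjustment, R 4.3.3), and differences of the dilation effect between cell types in joint fits with a library term. DESeq2 1.42.0, other normalisation and filters, and leaving out libraries or doublets were alternatives. The fits were tested on simulated data. Shares of nuclei have exact (Clopper-Pearson) 95% intervals. The study describes the libraries as independent biological replicates, with each condition spread over at least 2 of the 5 batches and over both sequencing runs.

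Named genes were the 25 with the largest log2 ratio of endothelial nuclei to the next type (5 CPM added, at least 30 endothelial UMIs over 8 libraries and 1 in each), the called genes of a contrast or, with fewer than 5 called, the 5 with the smallest p, and members of the gene lists for their role. The endothelial nuclei and the lists were chosen with earlier results of these data known. Gene positions are those of GENCODE vM21 (mm10). Library totals were 5189437 to 25136427 UMIs.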

Additional observations from a re-analysis of the deposited data

Results flagged for a closer look

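The response to dilation differed between endothelial nuclei and stroma 2 for 10 genes, and between endothelial nuclei and the dilator muscle for 34 genes, by edgeR's test of the difference itself with Benjamini-Hochberg adjustment. This test of the difference is what marks both for a closer look. All 10 and all 34 kept their sign under each alternative run (10 to 12 for each gene), whereas 0 of the 10 and 1 of the 34 (Slc6a6) were past the threshold under all of them. Why the responses differed was not tested.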

How the results depend on the processing

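The median log2 ratio of the 25 leading genes to the next type was 5.19, and became 5.49 over all 8 libraries, 5.36 with UMIs pooled, 5.66 without doublets and 5.12 to 5.24 when an untreated library was left out. The 0 genes called with dilation became 18 with no filter other than 1 count, 3 with DESeq2, and 0 to 7 when 1 library was left out (5 without constricted library 2, 1 without constricted library 3, 7 without dilated library 2). The 0 called with constriction became 61, 3, and 0 to 18 (2, 1 and 1 without constricted libraries 1, 2 and 3, and 10 and 18 without dilated libraries 1 and 2). The 0 between the treated groups became 10 with no filter and stayed at 0 with each library left out. Against stroma 2 the 10 genes became 61 with no filter, 1 without doublets and 0 to 34 with a library left out (1, 3 and 0 without untreated libraries 1, 2 and 3, 34 and 29 without constricted libraries 2 and 3, 0 without dilated library 1). Against the dilator the 34 became 61 with no filter and 1 to 49 with a library left out (21, 9 and 1 without untreated libraries 1, 2 and 3, 8 and 9 without dilated libraries 1 and 2). Leaving out nuclei with a Plvap or Kdr UMI, an alternative chosen after seeing the data, gave 1, 9, 10 and 21 genes for dilation, constriction, stroma 2 and dilator, with fewer genes tested. These were not all the genes called before. Of the 10 main calls against stroma 2, 7 stayed past the threshold, and of the 34 against the dilator 12 did, with 29 tested. With the replicate block 0 genes were called in each of the 3 contrasts, with 55, 113 and 47 at an unadjusted p under 0.05 by edgeR (DESeq2 without the block called 3, 3 and 0). Deviations from the group mean in same-numbered libraries were correlated at r of -0.253 to 0.0889. With so few nuclei per library, and only 2 dilated libraries, these values cannot show whether the numbers pair samples. A term for the series of library numbers, also added after seeing the data, gave 0 called genes in each of the 3 contrasts. Leaving out a dilated library leaves 1, which is then assumed to vary like the libraries of the other groups. Where counts moved, the cause was not tested. For single genes no alternative value changed sign. Of these values 315 kept the same call or, for the 25 leading genes, stayed within the SD between untreated libraries. A further 35 were newly past the threshold, and 22, all of leading genes, moved by at least that SD. Each library held 12 to 65 endothelial nuclei, and the median SE of a log2 fold change was 0.42 to 0.48.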
